A study of Homo sapiens with 6 samples.

Results

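The proteins of the cytosolic ribosome are encoded by a family of small, highly transcribed genes, and 77 of them were followed here across 3 lines of human gastric cancer cells. The members are the gene symbols made of RPL or RPS, 1 or 2 digits and at most a letter A or X, together with RPLP0, RPLP1, RPLP2 and RPSA, with at least 1 CPM (counts of a gene scaled to a common library total) in 2 of the 6 libraries. All 77 symbols of that form passed the minimum, of 29744 symbols in the deposited table, and all 77 entered the tests. They comprise 46 genes of the large and 31 of the small subunit. The established line MKN45 is labelled sensitive, and the remaining pair is described as its resistant derivatives. HER2R (labelled MKN-HER2, with the source name MKN45-HER2) resists HER2-TCB, a T cell bispecific antibody that binds HER2. CEAR (MKN-CEAR, source name MKN45-CEAR) resists CEACAM5-TCB, which binds CEACAM5. Whether the name MKN45-HER2 stands for a further change made to the parent line is not stated. All cells were grown in DMEM/F-12 with serum and the labels name no treatment. Each line had 2 libraries of total RNA depleted of ribosomal RNA. The labels do not say whether the 2 libraries came from separate cultures or whether a resistant line is 1 clone, so p-values reflect the spread of these libraries alone, which may be technical.

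Ribosomal proteins assemble with ribosomal RNA in the nucleolus into the large subunit, which forms peptide bonds, and the small subunit, which reads the mRNA. Their mRNAs carry a 5′ terminal oligopyrimidine (TOP) tract, a C at the first base followed by a run of C and T, through which mTOR signalling and the protein LARP1 control their translation. Free ribosomal proteins, RPL5 and RPL11 in the first place, can bind MDM2 when assembly is disturbed and so raise p53.

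The RefSeq promoter table (GRCh38.p14) held 62 of the 77 genes, with 77 transcription starts. A C at the annotated start followed by at least 4 pyrimidines stood at a start of 46 of those 62 genes (74.2%), against 5.14% of 27305 genes in the table. The bases around 8 starts are printed because these genes lead or oppose the differences described further on, from 30 bases before the start to 15 bases from it, 5′ to 3′ on the gene's strand. Capitals mark the unbroken run of pyrimidines that begins at the annotated start. Where a gene has several starts in the table, the first with a C and 4 pyrimidines is shown, if there is one.

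RPL36A (chrX:101390981-101391025, plus strand): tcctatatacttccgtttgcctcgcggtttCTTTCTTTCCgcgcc
RPL39 (chrX:119791616-119791660, minus strand): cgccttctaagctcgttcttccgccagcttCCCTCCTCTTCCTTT
RPS7 (chr2:3575230-3575274, plus strand): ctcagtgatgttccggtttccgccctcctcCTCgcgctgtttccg
RPL27 (chr17:42998389-42998433, plus strand): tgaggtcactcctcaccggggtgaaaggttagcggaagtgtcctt
RPS3 (chr11:75399488-75399532, plus strand): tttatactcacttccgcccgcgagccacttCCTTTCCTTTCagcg
RPL13 (chr16:89560652-89560696, plus strand): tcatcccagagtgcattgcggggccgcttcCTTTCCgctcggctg
RPL21 (chr13:27251528-27251572, plus strand): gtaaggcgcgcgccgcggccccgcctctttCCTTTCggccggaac
RPLP2 (chr11:809937-809981, plus strand): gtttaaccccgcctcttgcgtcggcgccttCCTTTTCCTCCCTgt

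In RPL39 the run filled all 15 bases printed, in RPLP2 it was 13 bases long and in RPS7 3, while RPL27 began with a purine at the start that RefSeq gives. In the 300 bases from 250 before to 50 after the start, searched on both strands, CCGGAAG (the core of ETS factor sites) stood in 33.8% of the members' 77 promoters and in 10.3% of all 35116. AAGATGGC, the core of YY1 sites, which can share its letters AAG with the end of CCGGAAG, stood in 7.79% against 2.89%. GGGCGG (the GC box) was in 54.5% against 45.0%, CACGTG (the E box) in 5.19% against 7.26% and TATAAA in 6.49% against 11.5%. These are matches of letters, not measured sites.

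Library totals ran from 39657353 to 57964246 counts, and 1 count was worth between 0.0177 and 0.0255 CPM, far below the lowest level of any member, 60.5 CPM. Gastric epithelial markers were present, as the label states: 9 of 10 exceeded 1 CPM in some library and 6 had at least 10 CPM in all, with summed levels of 8430 to 18110.1 CPM. Of 8 T cell markers 3 were at 0 in all libraries and none passed 1 CPM. The 7 fibroblast and endothelial markers summed to 1.00 to 7.74 CPM, and 2 of them were at 0 throughout.

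HER2R gave the largest share of its counts to ribosomal protein genes and CEAR the smallest. The members held 4.52% and 5.05% of all counts in the 2 HER2R libraries. In MKN45 they held 4.42% and 3.93%, and in CEAR 3.84% and 4.05%. HER2R therefore did not overlap with either other line, while MKN45 library 2 lay between the CEAR libraries. The means were 4.79% ± 0.373 (SD, n = 2) in HER2R, 4.18% ± 0.346 (SD, n = 2) in MKN45 and 3.94% ± 0.149 (SD, n = 2) in CEAR. An exact permutation test of 2 libraries against 2 cannot give a two-sided p below 0.333, so none was run on the share. In these bulk libraries, fewer cells with a transcript and less of it per cell cannot be told apart. Abundant noncoding RNAs, mostly the ribosomal RNA precursor, took 11.9% to 15.3% of a library. Without 11 of them in the total, the shares were 5.48% in HER2R, 4.83% in MKN45 and 4.56% in CEAR. The 76 mitochondrial ribosomal protein genes, whose products serve the separate ribosome of mitochondria, held 0.408% of counts in HER2R, 0.428% in MKN45 and 0.411% in CEAR on average.

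**Figure D1:**
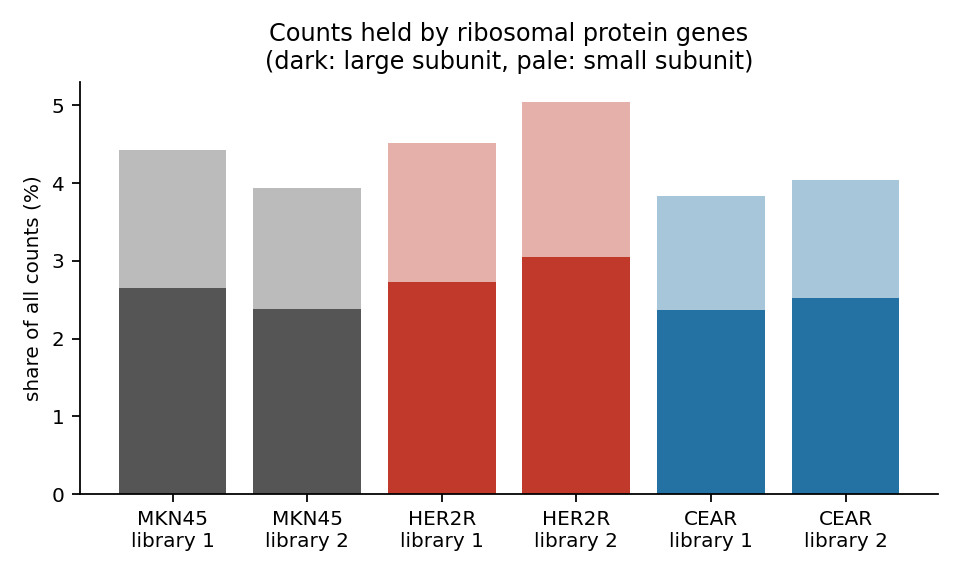
Share of all counts in % held by the 77 ribosomal protein genes in each of the 6 libraries, with the 46 large-subunit genes in the dark and the 31 small-subunit genes in the pale part of each bar. The HER2R bars reach 4.52% and 5.05% and the CEAR bars 3.84% and 4.05%.

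The members differed far more from each other in level than any of them did between libraries. Per kilobase of the shortest principal transcript in GENCODE 29, the highest mean levels included those of RPL41 at 2313 CPM per kilobase, RPLP0 at 1771, RPS3 at 1669.9 and RPL29 at 1462. RPL41 encodes the smallest of the ribosomal proteins, and RPLP0 the base of the stalk that recruits elongation factors. The median member stood at 654 CPM per kilobase. The lowest were RPL37 at 50.1, RPL27A at 57.8, RPL37A at 140.1, RPS28 at 169 and RPL22 at 173, and this end follows the annotated length, since the transcript taken was 7686 bases long for RPL37 and 4916 for RPL27A against a median of 705. With the summed length of all annotated exons in place of 1 transcript, the median fell to 151 CPM per kilobase. The ratio of the highest to the lowest of the 6 libraries, by contrast, had a median of 1.60 over the members and reached 3.14 at most, in RPL36A.

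The contrast between the resistant lines was the widest. Against CEAR, HER2R had 23 of the 77 members higher and 0 lower, where 7.32% of 14958 genes tested were called higher and 6.75% lower. Among the 1544 other genes within the members' range of mean CPM, the percentages were 7.64% and 5.96%. The median log2 fold change of the members was 0.44, against 0.00 over all genes tested, and 63 of 77 were fitted above 0. Both subunits took part, with 16 of 46 large-subunit genes called (median 0.38) and 7 of 31 small-subunit genes (median 0.49). At the level of single libraries, both HER2R libraries exceeded both CEAR libraries for 56 members and fell below them for 7 (RPL13, RPL15, RPL32, RPLP2, RPS13, RPS21 and RPSA), where 31.0% and 30.3% of all genes did.

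Calls rest on quasi-likelihood tests in edgeR, adjusted by Benjamini-Hochberg over all genes tested, at a threshold of 0.05. With the library number as a replicate block, 42 members were higher and 2 lower (19.7% and 18.6% of all genes), and DESeq2 called 38 higher and 0 lower (11.9% and 11.0%). At an unadjusted p under 0.05, edgeR had 41 members higher and 2 lower (16.3% and 15.6% of all genes). Leaving out a library of the compared lines removed nearly all calls: 1 member stayed higher without library 1 of CEAR, 2 without its library 2, 1 without library 1 of HER2R and 0 without its library 2, while all genes fell to 1.55%, 1.37%, 0.952% and 0.481%. Without MKN45 library 1 there were 15 calls and without MKN45 library 2 there were 16 (6.13% and 6.35%). Without HER2R library 2 the median over the members was 0.30. Of the 23 calls, 14 were made under every alternative that kept all 6 libraries.

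**Figure D2:**
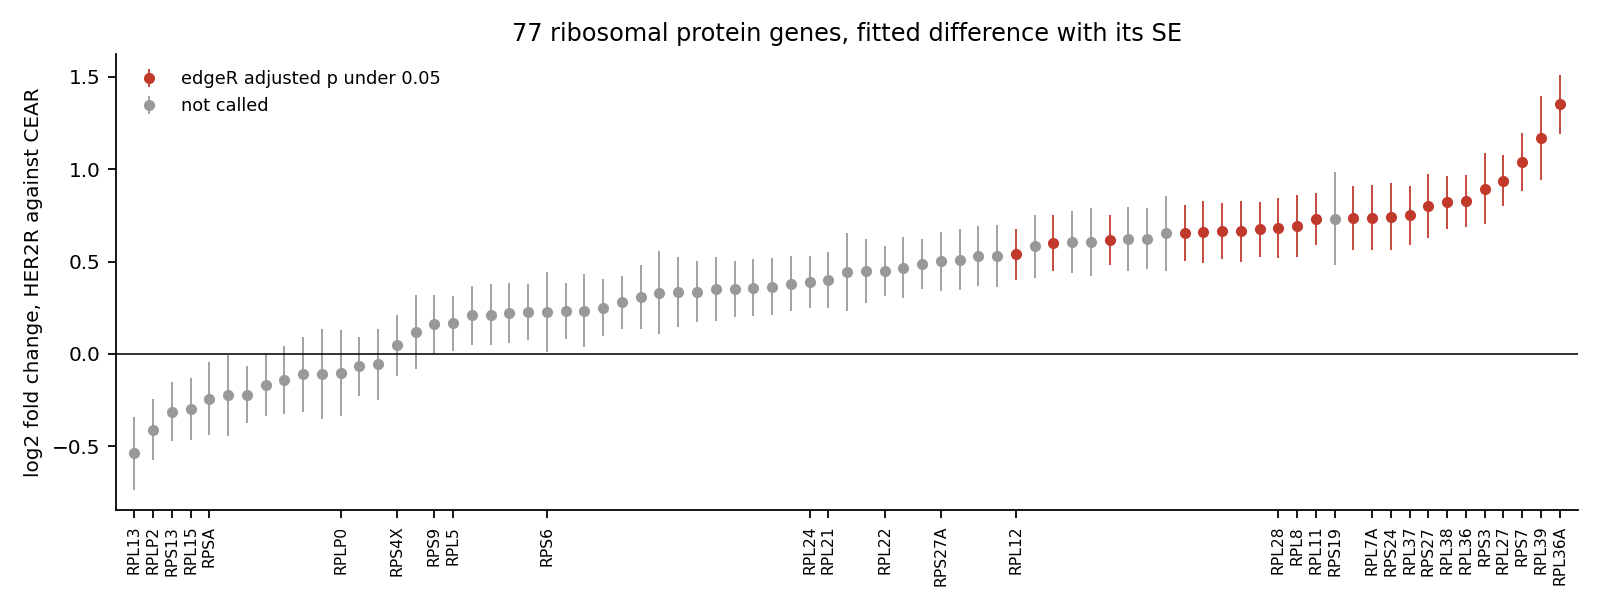
Fitted log2 fold change of each of the 77 members, HER2R against CEAR, from the lowest to the highest, with bars of 1 SE and the names of some members on the horizontal axis. Red points are the 23 members with an edgeR adjusted p under 0.05, which all lie above 0, and RPL13 is the lowest at -0.54.

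The pair with the largest differences lies on the X chromosome. RPL36A (chrX:101390824-101396154, plus strand, GRCh38, GENCODE 29) encodes a large-subunit protein near the exit site for transfer RNA. Its level was 149.5 and 185 CPM in HER2R, 139 and 131 in MKN45, and 60.5 and 70.7 in CEAR. Both CEAR libraries lay below the other 4, and HER2R was the highest (log2 fold change 1.35, SE 0.16, edgeR adjusted p = 0.00751). RPL39 (chrX:119786504-119791643, minus strand), whose product lines the tunnel through which the nascent peptide leaves, had 347 and 462 CPM in HER2R, 361 and 336 in MKN45, and 147 and 213 in CEAR. CEAR was again the low line, while the MKN45 and HER2R libraries overlapped (log2 fold change 1.17, SE 0.23, edgeR adjusted p = 0.0256). Its call ended without CEAR library 1 or either HER2R library, and the adjusted p over its alternatives ran from 4.38e-05 to 0.131. Reads of RPL36A can also be assigned to the read-through symbol RPL36A-HNRNPH2, which had 57.7 and 50.8 CPM in HER2R, 58.8 and 53.5 in MKN45, and 26.4 and 27.8 in CEAR (HER2R against CEAR 1.00, edgeR adjusted p = 0.0119). The call for RPL36A ended only without HER2R library 2 (edgeR adjusted p = 0.0608), and adjusted p over its alternatives ran from 5.95e-11 to 0.0608.

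RPS7, a small-subunit protein that can bind MDM2, and RPL27 and RPS3 came next. RPS7 (chr2:3575205-3580920, plus strand) stood at 529 and 622 CPM in HER2R, 354 and 304 in MKN45, and 285 and 274 in CEAR. HER2R lay above all other libraries by a wide gap (log2 fold change 1.04, SE 0.16, edgeR adjusted p = 0.0138). RPL27 (chr17:42998273-43002959, plus strand), a gene mutated in some cases of Diamond-Blackfan anaemia, had 227 and 258 CPM in HER2R, 170.2 and 150.0 in MKN45, and 125 and 128 in CEAR. Its lines did not overlap, with HER2R highest and CEAR lowest (log2 fold change 0.94, SE 0.14, edgeR adjusted p = 0.0126). RPS3 (chr11:75399486-75422280, plus strand), which sits where the mRNA enters the ribosome, is among the most abundant members and had 1982 and 2037 CPM in HER2R, 1373 and 1124 in MKN45, and 1085 and 1076 in CEAR. Again HER2R was above and CEAR below every other library (log2 fold change 0.89, SE 0.19, edgeR adjusted p = 0.032).

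A step lower were RPL36, RPL38 and RPS27. RPL36 (chr19:5674947-5691876, plus strand), of the large subunit, had 457 and 502 CPM in HER2R, 368 and 320.1 in MKN45, and 268 and 273 in CEAR, with no overlap between lines (log2 fold change 0.83, SE 0.14, edgeR adjusted p = 0.0191). RPL38 (chr17:74203582-74210655, plus strand), known for its part in translating Hox mRNAs in the mouse embryo, had 208 and 245 CPM in HER2R, 174 and 158 in MKN45, and 122 and 134 in CEAR. HER2R was highest and CEAR lowest there too (log2 fold change 0.82, SE 0.14, edgeR adjusted p = 0.0198). RPS27 (chr1:153990755-153992155, plus strand), a zinc-finger protein of the small subunit, had 325 and 406 CPM in HER2R, 253 and 232 in MKN45, and 189 and 230.3 in CEAR, and the CEAR libraries lay just under those of MKN45 (log2 fold change 0.80, SE 0.17, edgeR adjusted p = 0.0312). For RPS7, RPL27, RPS3, RPL36, RPL38 and RPS27 the call ended when any library of HER2R or CEAR was left out. The other 15 called members, from RPL12 at 0.54 to RPL37 at 0.75, included RPL7A, RPL8, RPL11, RPL12, RPL18, RPL19, RPL23, RPL28, RPL31, RPL37, RPS3A, RPS15 and RPS24.

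**Figure D3:**
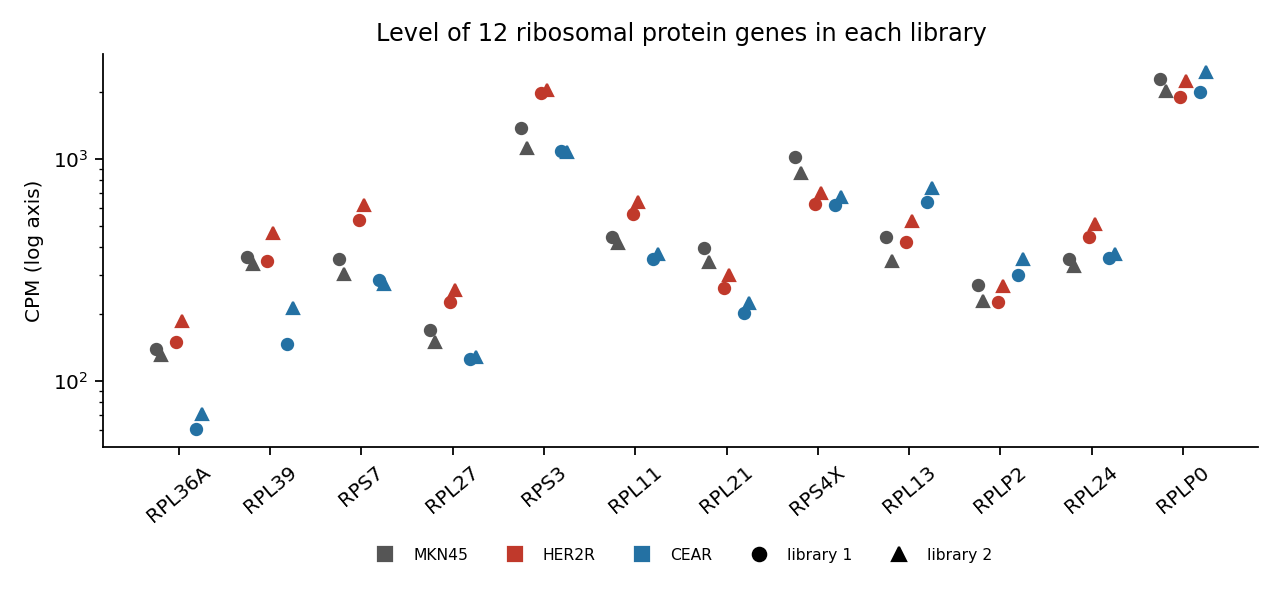
Level in CPM on a log axis of 12 members in each library, with circles for library 1, triangles for library 2 and a colour for each line. The CEAR points of RPL36A (60.5 and 70.7 CPM) and RPL39 lie lowest, the HER2R points of RPS7 and RPL27 lie highest, and those of RPL13 and RPLP2 are highest in CEAR.

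Of 8 members named for their known roles, 1 was called higher in this comparison, where 7.32% of all genes were. In that group 6 were fitted above 0, as were 7475 of the 14958 genes tested. RPL11 (chr1:23691742-23696835, plus strand), which binds MDM2, had 567 and 637 CPM in HER2R, 444 and 416 in MKN45, and 353 and 372 in CEAR. The 3 lines did not overlap, in the order HER2R, MKN45, CEAR (log2 fold change 0.73, SE 0.14, edgeR adjusted p = 0.0257). Its partner in the 5S particle, RPL5, had 430.0 and 444 CPM in HER2R, 479.7 and 403 in MKN45, and 405 and 374 in CEAR. HER2R and MKN45 overlapped there and CEAR overlapped with MKN45 at the lower end (log2 fold change 0.17, SE 0.15, edgeR adjusted p = 0.488). RPS19, the gene most often mutated in Diamond-Blackfan anaemia, had 755 and 1052 CPM in HER2R, 657 and 671 in MKN45, and 437 and 652 in CEAR, and its library 2 exceeded library 1 in all 3 lines. The difference was as large as that of RPL11 but did not pass (log2 fold change 0.73, SE 0.25, edgeR adjusted p = 0.102), and with the replicate block it did (edgeR adjusted p = 0.00864).

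RPS27A, made as a fusion with ubiquitin, had 752 and 887 CPM in HER2R, 682 and 638 in MKN45, and 564 and 595 in CEAR, with HER2R above and CEAR below all others (log2 fold change 0.50, SE 0.16, edgeR adjusted p = 0.0844). RPL22, which binds small viral RNAs and is often mutated in gastric tumours with microsatellite instability, had 401 and 457 CPM in HER2R, 341 and 333 in MKN45, and 309 and 319 in CEAR, in the same order (log2 fold change 0.45, SE 0.13, edgeR adjusted p = 0.0724). With the replicate block both passed, at edgeR adjusted p = 0.0223 and 0.0159. RPS6, the small-subunit protein phosphorylated by S6 kinase, had 583 and 770.0 CPM in HER2R, 613 and 612 in MKN45, and 489 and 666 in CEAR, and all lines overlapped (log2 fold change 0.23, SE 0.22, edgeR adjusted p = 0.512). RPLP0 of the stalk had 1911 and 2249.6 CPM in HER2R, 2293 and 2015 in MKN45, and 2009 and 2464 in CEAR, and RPSA, also described as a laminin receptor, had 683 and 608 CPM in HER2R, 805 and 604 in MKN45, and 821 and 706 in CEAR. RPLP0 overlapped between HER2R and CEAR, RPSA was lower in both HER2R than in both CEAR libraries, and neither passed (log2 fold change -0.10, SE 0.23, edgeR adjusted p = 0.792 for RPLP0 and -0.24, SE 0.20, adjusted p = 0.444 for RPSA).

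Against sensitive MKN45, HER2R had 2 members higher and 0 lower, while 4.89% of all genes were called higher and 4.85% lower (4.27% and 5.89% within the members' CPM range). The members called were RPS7 (log2 fold change 0.81, SE 0.16, edgeR adjusted p = 0.0278) and RPL27 (log2 fold change 0.60, SE 0.13, edgeR adjusted p = 0.0429). That count does not exceed the background. The median of the members was 0.19, against -0.017 over all genes, with 61 fitted above 0. Both HER2R libraries exceeded both MKN45 libraries for 37 members and fell below them for 3, where 27.8% and 29.3% of all genes did. Next to the called pair stood RPS3 at 0.69 (SE 0.19, adjusted p = 0.073), RPS27 at 0.59 (SE 0.17, adjusted p = 0.0779) and RPS24 at 0.52 (SE 0.18, adjusted p = 0.118), all short of the edgeR threshold. They passed with the replicate block, at edgeR adjusted p = 0.0168, 0.0121 and 0.0363. At the other end RPS4X, an X-linked small-subunit gene, had 628 and 702 CPM in HER2R, 1017 and 868 in MKN45, and 617 and 671 in CEAR. Both MKN45 libraries were the highest of the 6 (log2 fold change -0.50, SE 0.17, edgeR adjusted p = 0.108; adjusted p with the replicate block 0.0318). With the replicate block 16 members were higher and 2 lower (16.2% and 17.5% of all genes), DESeq2 called 13 higher and 1 lower (9.1% and 9.75%), and both edgeR calls ended without any 1 of the 6 libraries. At an unadjusted p under 0.05, edgeR had 18 members higher and 2 lower (13.9% and 14.8%). The median was 0.33 when library 1 of HER2R was left out and 0.055 when its library 2 was.

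In CEAR against MKN45 the members leaned the other way. None was called higher and 2 were lower, with 2.57% and 3.62% of all genes called in those directions, and 1.36% and 4.27% within the members' CPM range. RPL36A had the lowest value (log2 fold change -1.04, SE 0.16, edgeR adjusted p = 0.018), and RPL21 was the other (log2 fold change -0.79, SE 0.15, edgeR adjusted p = 0.0333). RPL21 (chr13:27251309-27256691, plus strand), of the large subunit, had 261 and 300.4 CPM in HER2R, 396 and 342 in MKN45, and 202 and 223 in CEAR, so MKN45 lay above HER2R and HER2R above CEAR with no overlap. RPL39 at -0.95 (SE 0.23, adjusted p = 0.0604), RPS3A at -0.67 (SE 0.17, adjusted p = 0.0671) and RPS14 at -0.63 (SE 0.17, adjusted p = 0.0847) missed the edgeR threshold. They passed with the replicate block, at edgeR adjusted p = 0.00326, 0.012 and 0.0181. The median of the members was -0.21, against -0.00019 over all genes, and 62 were fitted below 0. Both CEAR libraries lay below both MKN45 libraries for 44 members and above them for 9 (25.6% and 25.0% of all genes). With the replicate block 10 members were lower and 1 higher (13.8% and 12.0%), and DESeq2 called 8 lower and 1 higher (7.75% and 6.28%). At an unadjusted p under 0.05, edgeR had 15 members lower and 1 higher (12.5% and 10.8%). Both edgeR calls ended without either CEAR or either MKN45 library, and 1 remained without each HER2R library. Both comparisons with MKN45 use the same 2 MKN45 libraries, in which the members held 4.42% and 3.93% of counts.

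Set side by side over all 6 libraries, the lines ordered the members unevenly. Both HER2R libraries were above the 4 others for 36 members (18.3% of all genes) and below them for 0 (17.8%). Both CEAR libraries were below the 4 others for 42 (14.4% of all genes) and above them for 4 (14.3%), namely RPL13, RPL15, RPLP2 and RPS13. MKN45 was above both other lines for RPL21 and RPS4X (12.7% of all genes) and below them for RPL24 and RPL29 (10.9%). RPL13 (chr16:89560657-89566828, plus strand), a large-subunit gene, was the clearest exception, with 424 and 524 CPM in HER2R, 446 and 347 in MKN45, and 637 and 739.7 in CEAR. The CEAR libraries were the highest, and the difference missed the threshold against HER2R (log2 fold change -0.54, SE 0.20, edgeR adjusted p = 0.116) and against MKN45 (0.79, SE 0.20, adjusted p = 0.0671). It passed in both with the replicate block, at edgeR adjusted p = 0.0372 and 0.012. RPLP2, a protein of the stalk, had 226 and 267 CPM in HER2R, 269.8 and 229.9 in MKN45, and 299 and 356 in CEAR, with the highest levels in CEAR and overlap between HER2R and MKN45 (log2 fold change -0.41, SE 0.17, edgeR adjusted p = 0.145; adjusted p with the replicate block 0.0477). RPL24, a large-subunit protein at the interface with the small subunit, had 444 and 509.6 CPM in HER2R, 355 and 329 in MKN45, and 358 and 371 in CEAR, and HER2R was above and MKN45 below all others (log2 fold change 0.48, SE 0.14, edgeR adjusted p = 0.081 for HER2R against MKN45; adjusted p with the replicate block 0.0183).

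Where a member lies in the genome went with how it differed. For each member the median log2 fold change of the other genes tested was taken over those starting within 5 Mb of it (13 to 209 genes, median 69), a description chosen after the data had been seen. For HER2R against CEAR the members' own values and those medians had a Pearson correlation of 0.90 (Spearman 0.84) over 77 members. For CEAR against MKN45 it was 0.89 (Spearman 0.68) and for HER2R against MKN45 0.75 (Spearman 0.68). The points share libraries, and members close together share neighbours, so they are not independent. Over the 1504 other genes in the members' CPM range that have a position, the same Pearson correlation was 0.56, 0.49 and 0.47. Over the 76 mitochondrial ribosomal protein genes it was 0.70, 0.73 and 0.73. Some lists described further on came close to the members or passed them. The values were 0.88, 0.78 and 0.85 for 33 translation initiation factors and 0.79, 0.87 and 0.77 for 56 ribosome biogenesis factors. For 19 genes of RNA polymerase I transcription they were 0.87, 0.60 and 0.72, and for 17 other TOP mRNAs 0.72, 0.69 and 0.34.

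The X-linked pair shows this most plainly. In CEAR against MKN45, RPL36A fell by 1.04 on the log2 scale and its neighbours had a median of -1.05. RPL39 was at -0.95 and its neighbours at -1.02. RPL10 and RPS4X, elsewhere on the X chromosome, were at -0.14 and -0.55, with neighbours at 0.012 and -0.12. The opposite case was RPL13 on chromosome 16, at 0.79 with neighbours at 1.01. RPS7 near the start of chromosome 2 was 0.81 higher in HER2R than in MKN45, and its neighbours had a median of 0.74. On chromosome 11 the value for HER2R against CEAR was 0.89 for RPS3 (neighbours 0.40) but -0.41 for RPLP2 (neighbours -0.72) and -0.31 for RPS13 (neighbours -0.64), both on the other arm. The part of the chromosomal neighbourhood in these differences was not tested.

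The family was also displaced from its surroundings. For HER2R against CEAR 76 of 77 members lay above the median of their neighbours, as did 49.8% of the other genes tested. The difference from the neighbours had a median of 0.45, and RPS9 was the exception at -0.13. Subtracting the neighbours reduced the SD among members from 0.38 to 0.16. For HER2R against MKN45, 67 lay above (49.9% of other genes), with a median of 0.21, and for CEAR against MKN45 only 6 did (50.0%), with a median of -0.21. The latter 2 share the MKN45 libraries. The 23 members called in HER2R against CEAR had neighbours with a median of 0.22, and the 54 not called had neighbours at -0.13. After subtraction the called members stood at 0.50 and the others at 0.41. All 3 members on chromosome 15 and all 3 on chromosome 16 were fitted below 0 in that comparison. All 12 on chromosome 19 (6 called) and all 6 on chromosome 17 (4 called) were above, with 7.32% of all genes called higher. The other genes tested had medians on the same side of 0 as these members, -0.27 on chromosome 15, -0.66 on 16, 0.22 on 19 and 0.20 on 17. All 4 members on each of chromosomes 6, 8, 9 and X were above 0 as well. The other genes tested there had medians of -0.12, -0.067, -0.037 and -0.079. The median of the whole X chromosome does not describe the stretches around RPL36A and RPL39, whose neighbours within 5 Mb moved with them in CEAR against MKN45.

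**Figure D4:**
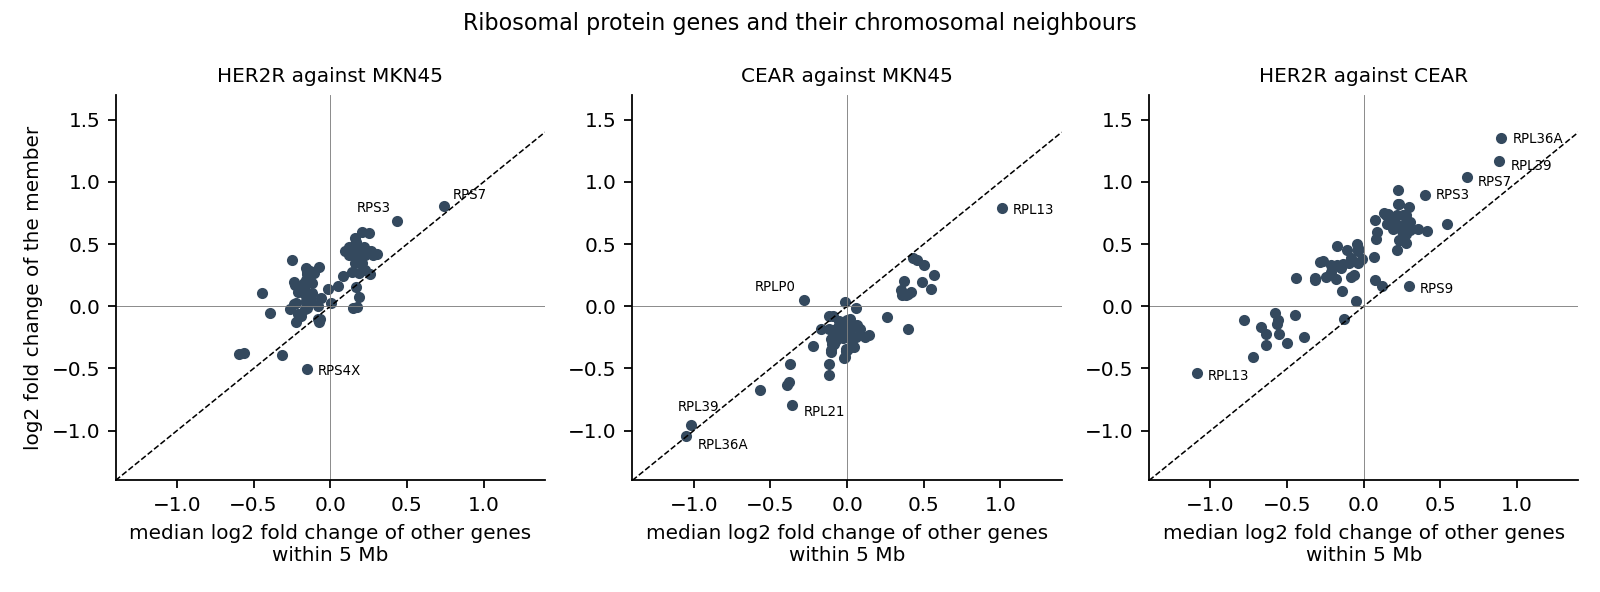
Log2 fold change of each member (vertical axis) against the median log2 fold change of other genes within 5 Mb (horizontal axis), for the 3 comparisons of lines. Points follow the dashed line of equality but lie above it in HER2R against CEAR (76 of 77) and below it in CEAR against MKN45 (71 of 77).

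Other properties of the members went along with the differences only weakly. Across the 77 members, Pearson's r between the value for HER2R against CEAR and the log2 transcript length was -0.14, and with the log2 mean CPM it was -0.15. A C with 4 pyrimidines stood at a start of 14 of the 18 called members in the RefSeq table and of 32 of the 44 that were not called.

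Each line has a library 1 and a library 2, and what these numbers stand for is not stated. Adding the number to the model, edgeR called 0 members higher and 0 lower in library 2 than in library 1, while 9.33% and 7.34% of all genes were called, and 6.93% and 15.6% within the members' CPM range. At an unadjusted p under 0.05, edgeR had 2 members higher and 1 lower (17.6% and 14.9% of all genes), and DESeq2 called 2 higher and 1 lower (8.88% and 8.1% of all genes). Members moved between libraries of 1 line as a block, but in different directions. In MKN45 library 2 was lower for all but 2 members (median difference -0.20 in log2 CPM). Library 2 was higher for 71 members in HER2R (median 0.19) and for 57 in CEAR (median 0.099). Gene by gene, these steps correlated between lines over the members. The correlation was 0.61 for MKN45 with HER2R, 0.40 for MKN45 with CEAR and 0.75 for HER2R with CEAR. Over all genes tested it was 0.36, 0.52 and 0.32. RPS19 had the largest rise in both resistant lines, 0.48 and 0.58. The steps within MKN45 and within HER2R are about as large as the medians of HER2R and of CEAR against MKN45, 0.19 and -0.21. The summed level of the epithelial markers, led by KRT8 and KRT18, was higher in library 2 of every line. It went from 11707 to 15677 CPM in MKN45, 13075 to 18110.1 in HER2R and 8430 to 10296 in CEAR. The sum includes CEACAM5, which went from 1007 to 2441 CPM in MKN45, 1036 to 2289 in HER2R and 2.34 to 15.9 in CEAR. The part of this sum in the members' values was not tested.

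Genes close to the family in sequence or function bore on these values in different ways. Of 8 paralogs with other symbols, 6 were tested and 1 was called in any comparison of lines. RPS27L, a p53 target related to RPS27, had 82.6 and 72.1 CPM in HER2R, 123 and 120.0 in MKN45, and 95.8 and 96.3 in CEAR, and MKN45 was above both derivatives (HER2R against MKN45 log2 fold change -0.65, SE 0.13, edgeR adjusted p = 0.0275). RPL36AL, the paralog of RPL36A, had 49.0 and 60.3 CPM in HER2R, 46.1 and 48.3 in MKN45, and 45.0 and 51.0 in CEAR (log2 fold change 0.19, SE 0.15, edgeR adjusted p = 0.449). For RPL39L the values were 8.64 and 8.31 CPM in HER2R, 10.7 and 9.32 in MKN45, and 8.41 and 8.67 in CEAR (log2 fold change -0.011, SE 0.20, edgeR adjusted p = 0.975), and for RPL22L1 they were 23.7 and 26.5 CPM in HER2R, 20.4 and 26.2 in MKN45, and 20.4 and 17.5 in CEAR (log2 fold change 0.41, SE 0.19, edgeR adjusted p = 0.193). RPL7L1 and RPL26L1 were at -0.098 (SE 0.12, adjusted p = 0.626) and 0.13 (SE 0.17, adjusted p = 0.637) by edgeR in that comparison. RPL3L had 1 count and RPL10L 0 counts over all libraries. Of the ribosomal proteins named otherwise, FAU had 226 and 279 CPM in HER2R, 219 and 217 in MKN45, and 184 and 204 in CEAR (log2 fold change 0.38, SE 0.15, edgeR adjusted p = 0.137), and RACK1, listed as GNB2L1, had 1049 and 1069.9 CPM in HER2R, 1252 and 955 in MKN45, and 689 and 632 in CEAR (log2 fold change 0.68, SE 0.19, edgeR adjusted p = 0.0624). With the replicate block both passed, at edgeR adjusted p = 0.0305 for FAU and 0.0104 for RACK1.

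Many processed pseudogenes resemble these mRNAs, and the table lists 30 symbols for them. Their counts came to 0.264% to 0.333% of the members' counts in each library. RPSAP58 held the most, 14829 counts over all libraries, followed by RPL13AP5 with 5642. How the submitters' counting treated reads that match several copies is not given in the sources used here. Levels of members with such copies, among them RPSA, RPL13A, RPL21 and RPL23A, are therefore uncertain by an amount that these counts do not bound.

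Other parts of the translation machinery were compared through lists, with 7.32% of all genes called higher and 6.75% lower in HER2R against CEAR. The median of HER2R against CEAR was 0.72 for 5 elongation factors, of which 2 were called higher. These were EEF1D (341 and 391 CPM in HER2R, 322 and 274 in MKN45, and 203 and 195 in CEAR; log2 fold change 0.88, SE 0.15, edgeR adjusted p = 0.0184) and EEF1G (0.84, SE 0.20, adjusted p = 0.0434), subunits of the exchange factor for EEF1A. Of 18 other mRNAs with a TOP tract 4 were called, all higher, with a median of 0.46. PABPC1, the poly(A)-binding protein, had 1936 and 2092 CPM in HER2R, 1578 and 1248 in MKN45, and 1066 and 1074 in CEAR (log2 fold change 0.91, SE 0.20, edgeR adjusted p = 0.0346), and EIF3E at 0.54 (SE 0.14, adjusted p = 0.0475) and EIF3H at 0.53 (SE 0.13, adjusted p = 0.0414) were also called by edgeR. All 12 noncoding hosts of small nucleolar RNAs, several of which also begin with a TOP tract, were fitted above 0 (median 0.64). SNHG16 (0.88, SE 0.20, adjusted p = 0.0376) and GAS5 (0.83, SE 0.20, adjusted p = 0.0438) were called by edgeR. No gene of these lists was called lower.

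Genes that make ribosomes, initiation factors and mitochondrial ribosomal proteins had medians nearer 0 than the members. Their counts are to be read against the same 7.32% and 6.75%. The 57 ribosome biogenesis factors had a median of -0.051 with 4 higher and 2 lower, the 19 genes of RNA polymerase I transcription -0.0073 with 2 and 2, and the 33 initiation factors 0.047 with 4 and 1. EIF3E and EIF3H count among the initiation factors called higher and also among the TOP mRNAs above. The 10 dedicated chaperones of ribosomal proteins had a median of -0.19 with 1 called, which was lower (HEATR3, -0.63 (SE 0.16, adjusted p = 0.0461) by edgeR). The 76 mitochondrial ribosomal proteins had a median of 0.096 with 4 higher and 2 lower. Examples of the biogenesis calls were RRP1B at 0.68 (SE 0.14, adjusted p = 0.0288), WDR43 at 0.66 (SE 0.15, adjusted p = 0.0333) and NIP7 at -0.63 (SE 0.14, adjusted p = 0.0321). Relative to their own neighbours within 5 Mb, the biogenesis factors stood at -0.050 and the mitochondrial ribosomal proteins at 0.0053, against 0.45 for the members, 0.26 for 17 other TOP mRNAs with a position and 0.51 for the noncoding hosts.

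**Figure D5:**
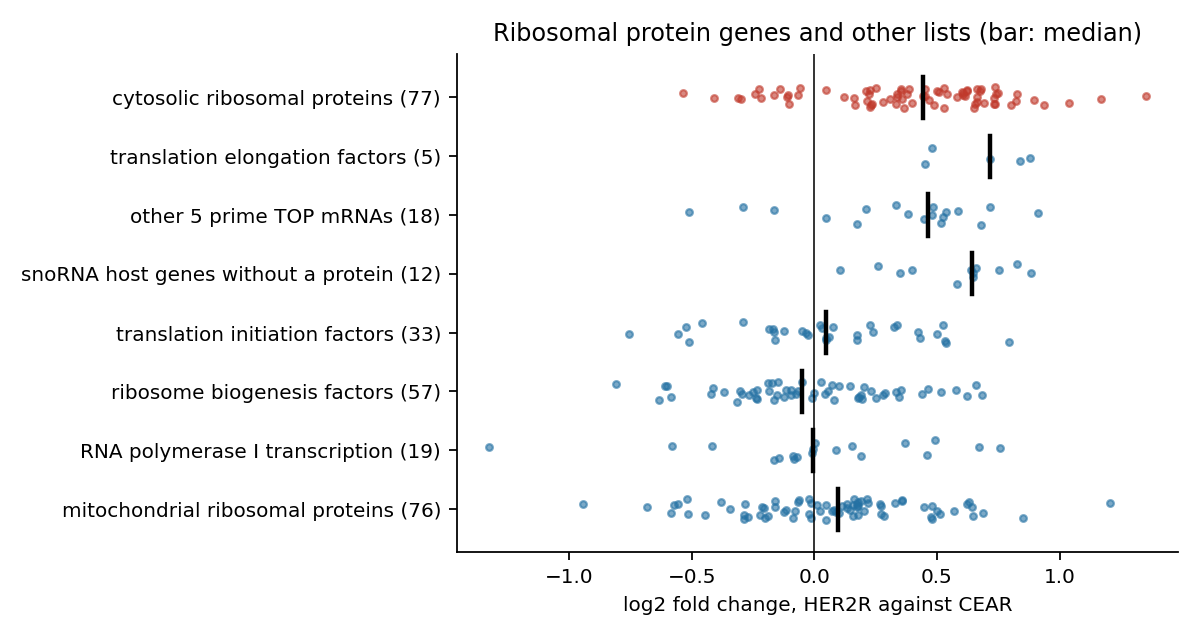
Log2 fold change of HER2R against CEAR for each gene of 8 lists, with the number of genes in brackets and a black bar at the median. The members (red, median 0.44), elongation factors, other TOP mRNAs and noncoding hosts of small nucleolar RNAs lie mostly above 0, and the other lists centre near 0.

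Regulators of ribosomal protein genes gave a mixed picture, and p53 targets are given after them. Of 21 genes that control TOP mRNAs and growth, 4 were higher and 1 lower in HER2R than in CEAR (7.32% and 6.75% of all genes). MXD1, an antagonist of MYC, had 134 and 173 CPM in HER2R, 54.8 and 51.9 in MKN45, and 59.2 and 60.0 in CEAR, with HER2R far above the rest (log2 fold change 1.36, SE 0.16, edgeR adjusted p = 0.00742). RPS6KB1, an S6 kinase, was at 0.76 (SE 0.16, adjusted p = 0.0302) and TSC2, an inhibitor of mTOR signalling, at -0.53 (SE 0.13, adjusted p = 0.0411) by edgeR. The other calls by edgeR were EIF4EBP2, for an EIF4E-binding protein, at 0.52 (adjusted p = 0.0481) and RPS6KB2 at 0.49 (adjusted p = 0.0461). MYC, an activator of ribosomal protein genes, had 118 and 153 CPM in HER2R, 85.1 and 41.9 in MKN45, and 116 and 82.4 in CEAR and differed widely between libraries of a line (log2 fold change 0.45, SE 0.35, edgeR adjusted p = 0.42). In HER2R against MKN45, MYC was at 1.09 (SE 0.35, edgeR adjusted p = 0.099) and passed with the replicate block, at edgeR adjusted p = 0.0116. LARP1 had 650.3 and 641 CPM in HER2R, 796 and 593 in MKN45, and 602 and 505 in CEAR (log2 fold change 0.22, SE 0.19, edgeR adjusted p = 0.477), and MDM2 had 748 and 512 CPM in HER2R, 787 and 748 in MKN45, and 603 and 476 in CEAR (log2 fold change 0.22, SE 0.23, edgeR adjusted p = 0.541). CDKN1A, a p53 target, had 162 and 148 CPM in HER2R, 184 and 237 in MKN45, and 55.7 and 68.4 in CEAR. Both CEAR libraries were far below the others (log2 fold change -1.76, SE 0.18, edgeR adjusted p = 0.00639 for CEAR against MKN45). CDKN1A in HER2R against MKN45 (-0.45) and MDM2 in CEAR against MKN45 (-0.51) missed the edgeR threshold, at adjusted p = 0.155 and 0.244. With the replicate block they passed, at edgeR adjusted p = 0.037 and 0.0337. Over 21 p53 targets, 4 were called in CEAR against MKN45, all lower (3.62% of all genes), and 2 in HER2R against CEAR, both higher (7.32% of all genes). In HER2R against MKN45, 1 was called higher and 2 lower (4.89% and 4.85% of all genes). The median was -0.40 there, with 16 fitted below 0, and -0.63 in CEAR against MKN45, with 17 below 0.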

How the data were processed

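RNA of 3 lines with 2 libraries each was measured by RNA-seq of stranded total RNA after ribosomal RNA depletion, per the labels' protocols. What the authors deposited is a table of unnormalized counts for each symbol, 39657353 to 57964246 a library. The submitters' processing notes name GRCh38 and limma without version or role. Aligner and counting program: not given in the sources used here. Members and gene lists were chosen with earlier results of these data known.

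Quasi-likelihood F tests of the counts were run in edgeR 4.0.16 (R 4.3.3). The fit used filterByExpr by line (14958 of 29744 symbols kept), TMM scaling, a term per line over all 6 libraries (3 residual and 3.51 prior degrees of freedom) and Benjamini-Hochberg adjustment over all symbols tested, with a threshold of 0.05. SE values follow from the fold change and its F statistic. Intervals were not computed, and precision rests on the 2 libraries of each line. DESeq2 1.42.0, limma-voom 3.58.1, other scalings and filters, the compared lines alone, and leaving out each library were alternatives. Scaling from the other genes, the neighbour medians and their 2 Mb window were chosen after seeing the data. Same-numbered libraries of different lines deviated together (correlation over all genes tested 0.36, 0.52 and 0.32), so the number pairs them by these data. The fit with a replicate block is given for many of the results it changes, and others that it changes are not reported here. Positions and lengths came from GENCODE 29, and promoters from RefSeq. The fit and neighbour code was tested on simulated data, where, for HER2R against MKN45, false calls were clearly more frequent than the threshold allows, so calls close to it are less sure.

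Genes were named by these rules. In each comparison, up to 8 called members per direction were named, with the 5 highest and lowest per length and up to 5 members for which a line lay above or below both others. RPL22, RPL5, RPL11, RPS6, RPS19, RPLP0, RPSA and RPS27A were named for their known roles, as were paralogs, FAU, RACK1, MYC, LARP1, MDM2 and CDKN1A. Up to 4 called genes per direction came from each other list. Some genes that the rules name are not reported here. Members named outside these rules, among them those just short of a threshold, were chosen after their values were seen.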

Additional observations from a re-analysis of the deposited data

Results flagged for a closer look

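For 23 members the difference from MKN45 was not the same in HER2R as in CEAR, by edgeR's test of HER2R against CEAR, which is the test of that difference (adjusted p under 0.05 over all genes, 7.32% of which were called higher). Among them, the difference on the log2 scale was 1.35 for RPL36A, 1.17 for RPL39, 1.04 for RPS7, 0.94 for RPL27, 0.89 for RPS3, 0.83 for RPL36, 0.82 for RPL38, 0.80 for RPS27. It was 0.75 for RPL37, 0.74 for RPS24, 0.74 for RPL7A, 0.73 for RPL11, 0.69 for RPL8, 0.68 for RPL28, 0.67 for RPS15. It was also 0.66 for RPS3A, 0.66 for RPL19, 0.66 for RPL23, 0.62 for RPL18, 0.60 for RPL31 and 0.54 for RPL12. With 2 libraries in each line, no line had enough libraries to look for one that stands apart from its line.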

How the results depend on the processing

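The direction of the members' median held in the 3 comparisons of lines under every alternative run, and the counts of calls did not. With the replicate block, HER2R against MKN45 had 16 members higher and 2 lower, CEAR against MKN45 had 1 and 10, and HER2R against CEAR had 42 and 2. DESeq2 gave 13 and 1, 1 and 8, and 38 higher, and for library number 2 against 1 it gave 2 and 1. With the compared lines alone, HER2R against MKN45 had 0 higher, CEAR against MKN45 1 lower and HER2R against CEAR 18 higher, where the main fit had 23. Without a filter, 1 was higher in HER2R against MKN45 and 15 in HER2R against CEAR. With library totals alone 1 was higher in CEAR against MKN45 and 18 in HER2R against CEAR. The shares of all genes called with the compared lines alone, without a filter and with library totals alone are not reported here. The cause of these moves was not tested, except that a fit on fewer libraries has fewer residual degrees of freedom. Without 11 abundant noncoding RNAs in the total, the member share was 4.83% in MKN45, 5.48% in HER2R and 4.56% in CEAR, and the value of RPL5 in HER2R against MKN45 turned to 0.0012. The median level per length was 151 with summed exon length.

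Leaving out 1 library gave 0 to 0 members higher in HER2R against MKN45, 0 to 1 lower in CEAR against MKN45, 0 to 16 higher in HER2R against CEAR and 0 to 2 higher for the library number (1 without MKN45 library 1 and 2 without MKN45 library 2). The medians ran from 0.055 to 0.33, from -0.32 to -0.095 and from 0.30 to 0.53 in the 3 comparisons. None of these genes was called in the comparison given. In HER2R against MKN45, leaving out 1 library moved RPLP0 from -0.17 to 0.0600, RPL5 from -0.14 to 0.12, RPS6 from -0.0736 to 0.33, RPSA from -0.32 to 0.10, GNB2L1 from -0.25 to 0.15 and LARP1 from -0.31 to 0.13. In CEAR against MKN45, leaving out 1 library moved RPLP0 from -0.0985 to 0.19, RPS6 from -0.32 to 0.12 and RPSA from -0.0788 to 0.35. In HER2R against CEAR, leaving out 1 library moved RPLP0 from -0.25 to 0.0455 and MDM2 from -0.0810 to 0.47. With a 2 Mb window the correlation with neighbours was 0.88 in HER2R against CEAR, 0.86 in CEAR against MKN45 and 0.72 in HER2R against MKN45. Depth does not limit the members, whose lowest level is 60.5 CPM, and 2 libraries a line do.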
